A study of Mus musculus with 12 samples.

Results

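Mitochondria keep their own small genome, and the proteins that copy it and read it out are made from genes in the nucleus. Of the 55487 gene identifiers listed in the count tables, 10 of these nuclear genes were followed here by name. They are Tfam, Tfb2m and Polrmt, which start transcription of mitochondrial DNA; Tefm, which acts during elongation; Lrpprc and Slirp, which bind and stabilise mitochondrial messenger RNA; Tfb1m, which methylates the small ribosomal RNA; Polg and Ssbp1, which act in replication; and Nrf1, a nuclear transcription factor. The genes were chosen by symbol and matched to Ensembl identifiers. Of the 10, 9 passed the filter on low counts and were tested. Slirp did not pass.

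As background, POLRMT, the mitochondrial RNA polymerase, forms an initiation complex with TFAM, which bends and packages the DNA, and TFB2M, which opens the promoter. TEFM then keeps the polymerase moving, and the same enzyme also makes the primers from which the replicative polymerase, with catalytic subunit POLG, copies the genome while SSBP1 covers the exposed single strand. Hepatocytes are rich in mitochondria, and their respiratory chain needs subunits encoded in both genomes.

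The cells were primary mouse hepatocytes, the main parenchymal cells of the liver, in culture. They formed 4 groups of 3 libraries each. Control cells had neither a scavenger nor FAC (not written out in the labels), and the FAC group had FAC alone. In the Lip-1+FAC group FAC followed liproxstatin-1, added on the second day in culture and labelled as scavenging lipid ROS (reactive oxygen species). In the MT+FAC group it followed Mito-TEMPO, labelled as scavenging mitochondrial ROS and added at the same time. No group had a scavenger without FAC, so that the scavengers were seen only together with it. The labels give no strain, age or dose and do not say whether the replicates came from separate animals or cultures, so that p-values measure only the spread between these libraries, which may be technical.

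Libraries held 22991598 to 31683376 reads assigned to genes, except FAC replicate 2, which held 52529278 and whose deposited file is marked as combined. Values per library are CPM, counts scaled to the library's total after TMM normalisation. A gene was called when its edgeR quasi-likelihood p was under 0.05 after Benjamini-Hochberg adjustment, which covered all 13535 tested genes. Among markers of other liver cells, those of cholangiocytes moved with the groups. The 4 cholangiocyte markers (Krt19, Krt7, Epcam and Sox9) summed to 20.9 to 23.79 CPM in control, 57.98 to 74.33 in FAC, 12.39 to 15.58 in Lip-1+FAC and 17.09 to 20.08 in MT+FAC, and all 4 were called higher in FAC than in control and lower in both scavenger groups than in FAC. The 6 macrophage markers summed to 223.1 to 255.2, 288.9 to 321, 115.5 to 146.6 and 142.6 to 174 CPM in the same order, but this sum was mostly Cd68, a lysosomal protein gene, which was called higher in FAC than in control (0.39) and lower than FAC in Lip-1+FAC (-1.25) and MT+FAC (-1.03). Of the other 5, Clec4f was called the opposite way in FAC against control (-1.08) and in MT+FAC against FAC (1.16), and none of them was called in Lip-1+FAC against FAC. The 6 stellate and fibroblast markers summed to 18 to 24.5, 28.02 to 35.49, 11.1 to 14.05 and 12.28 to 17.32 CPM. Of the 4 that were tested, Reln was called higher and Dcn lower in FAC than in control, and Reln and Acta2 were called lower in both scavenger groups than in FAC. The 5 endothelial markers summed to 33.01 to 34.45, 32.06 to 33.03, 23.8 to 25.33 and 24.22 to 28.21 CPM, and Stab2 was the one called, lower in both scavenger groups than in FAC. The 8 hepatocyte markers summed to 17410 to 17770 CPM in control, 16770 to 17710 in FAC, 13700 to 14790 in Lip-1+FAC and 14050 to 15380 in MT+FAC. Against control, 1 was called higher and 7 lower in Lip-1+FAC (median -0.50), 1 higher and 5 lower in MT+FAC (median -0.46), and 2 higher and 2 lower in FAC. Blood cell markers stayed between 0 and 0.4002 CPM, with the T cell gene Cd3e and the B cell gene Ms4a1 at 0 in every library. The part of these cells in the results was not tested, and fewer cells of a type cannot be told apart from less RNA per cell.

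Nuclear genes for mitochondrial proteins often carry promoter sites for NRF1 and for ETS factors such as the GABPA and GABPB complex, known as NRF2 in older work on this system. RefSeq promoter windows on build GRCm38.p6, from 250 bases before to 50 bases after each start, were available for all 10 genes (11 windows). The ETS letters CCGGAAG, searched on both strands, were found in windows of 6 of the 10 genes, against 8.9% of all 32851 windows of the same length. The NRF1 letters GCGCANGCG were found in 2, against 6.2% of all windows. Stretches of 30 bases around a match are shown 5′ to 3′ on the strand of the gene because the genes that carry one moved in different directions below, with the match in capitals.
Tfam, chr10:71238074-71238103, minus strand, ETS letters beginning 47 bases before the start: tcctgccgcggaCCGGAAGtccgggcttcc
Tefm, chr11:80142145-80142174, minus strand, ETS letters beginning 9 bases before the start: gagcacacgaaaCCGGAAGttgaggaggaa
Polg, chr7:79466294-79466323, minus strand, ETS letters beginning 38 bases before the start: ggaggacctcacCCGGAAGtccctctgcac
Ssbp1, chr6:40471409-40471438, plus strand, ETS letters beginning 47 bases before the start: gggctccgtgcgCCGGAAGcgagccgctgg
Polrmt, chr10:79746607-79746636, minus strand, reversed ETS letters beginning 43 bases before the start: accctaagagcgCTTCCGGcagtcgcagaa
Polrmt, chr10:79746568-79746597, minus strand, reversed NRF1 letters beginning 5 bases before the start: cctgcaggcggCGCGTGCGCgtgcgcactg
Tfb2m, chr1:179546246-179546275, minus strand, reversed NRF1 letters beginning 13 bases after the start: gctaggtcgttCGCATGCGCcattcgtaat
Polrmt held a second NRF1 match that overlapped the one shown, and Slirp held 3 ETS matches. Neither set of letters was found in the windows of Tfb1m, Lrpprc or Nrf1. A match is only a match of letters, and no binding was measured.

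Per kilobase of the principal annotated transcript, control levels differed widely among the 9 counted genes. Lrpprc was the highest at 32 ± 2.48 CPM per kilobase (mean ± SD over 3 libraries), followed by Nrf1 at 24.5 ± 1.97 and Polrmt at 16.8 ± 1.15. Tfb2m (11.8 ± 0.497), Polg (11.6 ± 0.547) and Tefm (10.5 ± 0.743) followed. Ssbp1 stood at 9.4 ± 1.18 and Tfam at 7.94 ± 0.635. From Tfb2m down to Tfam the libraries of each gene overlapped those of the next, and those of Tefm also overlapped Tfb2m, so that neighbours in this stretch did not differ beyond their spread. Tfb1m was the lowest at 1.57 ± 0.169. Per kilobase of all annotated exonic bases the order changed: Lrpprc remained the highest (16.6 ± 1.28) and Tfb1m the lowest (0.611 ± 0.0656), but Nrf1 stood at 4.47 ± 0.36, below Tfam at 7.45 ± 0.596. The order among the genes in between therefore depended on the annotated length.

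With FAC alone, 3 of the 9 tested genes fell (Tfb1m, Tefm and Ssbp1) and 1 rose (Polg) against control. Tfam, Tfb2m, Polrmt, Lrpprc and Nrf1 did not pass the test. Of all 13535 genes, 36.6% were called in this comparison, 17.5% higher and 19.1% lower, and 4 of 9 is near that share. The median log2 fold change of the 9 genes was -0.12, against -0.01 over all genes.

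With liproxstatin-1 before FAC, 5 genes rose against FAC alone (Tfam, Tfb1m, Tefm, Lrpprc and Ssbp1) and Polg fell. With offsets for GC content and annotated exonic length 1 rose (Tefm) and 1 fell (Polg). The background was 39.9% of all genes called, 20.7% higher and 19.2% lower. The median log2 fold change was 0.20 for the 9 genes and 0 over all genes. With Mito-TEMPO before FAC, 3 genes rose against FAC alone (Tfb1m, Tefm and Ssbp1) and Tfb2m fell, while 40.9% of all genes were called, 21.2% higher and 19.7% lower. The median was 0.10 here, against 0 over all genes. Without FAC replicate 2, the deepest library, the genes called were Tfb1m, Tefm and Ssbp1 in FAC against control, Tfam, Tfb1m, Tefm and Ssbp1 in Lip-1+FAC against FAC, and Tfb1m, Tefm and Tfb2m in MT+FAC against FAC. Both comparisons with FAC use the same FAC libraries as the comparison of FAC with control, so that a gene low in those libraries tends to appear as lower there and as higher here.

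**Figure D1:**
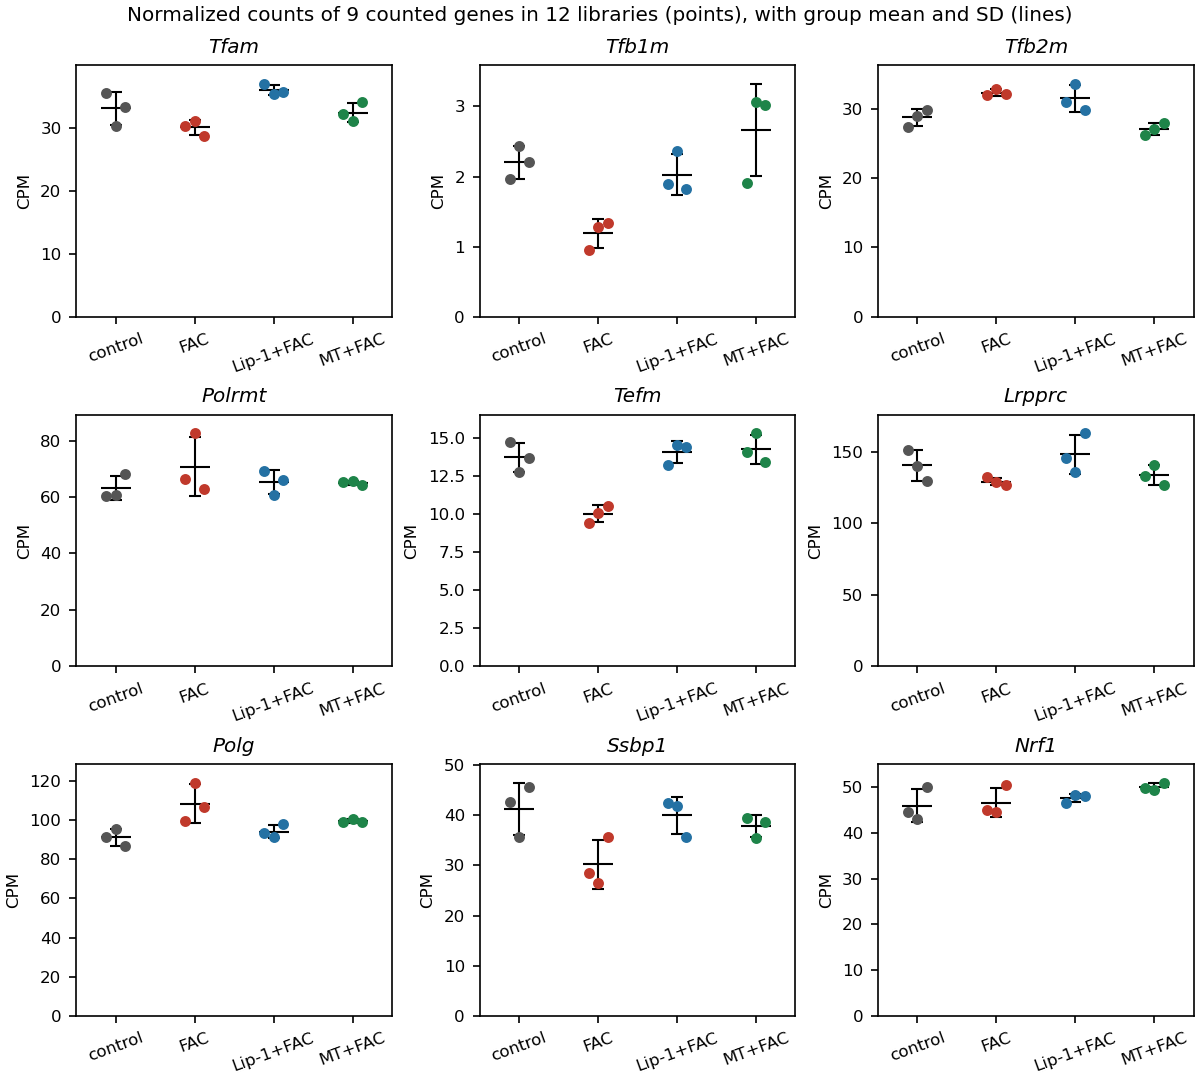
CPM (vertical axis, from 0) of each of the 9 counted genes in the 12 libraries, by group (horizontal axis). Points are libraries and lines are the group mean and SD. For Tefm and Tfb1m the 3 FAC libraries lie below all 9 others, and for Polg they lie above those of control and Lip-1+FAC.

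Neither scavenger group differed detectably from control in any of the 9 genes. For Lip-1+FAC against control, 30.2% of all genes were called (15.4% higher, 14.8% lower) and 0 of the 9, with log2 fold changes from -0.12 to 0.13. For MT+FAC against control, 19.8% of all genes were called (9.71% higher, 10.1% lower) and again 0 of the 9, with log2 fold changes from -0.13 to 0.27. In both comparisons edgeR gave 0 of the 9 genes at an unadjusted p under 0.05, and DESeq2 also called 0. The 95% intervals still allowed sizeable differences for Tfb1m, from -0.65 to 0.41 and from -0.25 to 0.78 on the log2 scale, whereas for Tefm they ran from -0.19 to 0.26 and from -0.16 to 0.28. With offsets for GC content and annotated exonic length 1 gene was called in MT+FAC against control, Lrpprc at -0.20 (adjusted p 0.0245).

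Between the scavenger groups 0 of the 9 genes were called, against 1.34% of all genes (0.465% higher and 0.879% lower in MT+FAC). At an unadjusted p under 0.05, edgeR gave 2 of them. They were Tfb2m, with a log2 fold change of -0.22 (SE 0.0762, adjusted p 0.18), and Lrpprc, with -0.15 (SE 0.0709, adjusted p 0.377), both lower in MT+FAC. DESeq2 called 0. The interval for Tfb1m ran from -0.13 to 0.91, so that a higher level in MT+FAC was not resolved. Of the 182 genes called in this comparison 34.6% were higher in MT+FAC, and under upper quartile scaling 46.7%. The share was 17.1% without Lip-1+FAC replicate 1, 22.1% and 23% without MT+FAC replicates 2 and 3, and 51.3% without MT+FAC replicate 1.

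**Figure D2:**
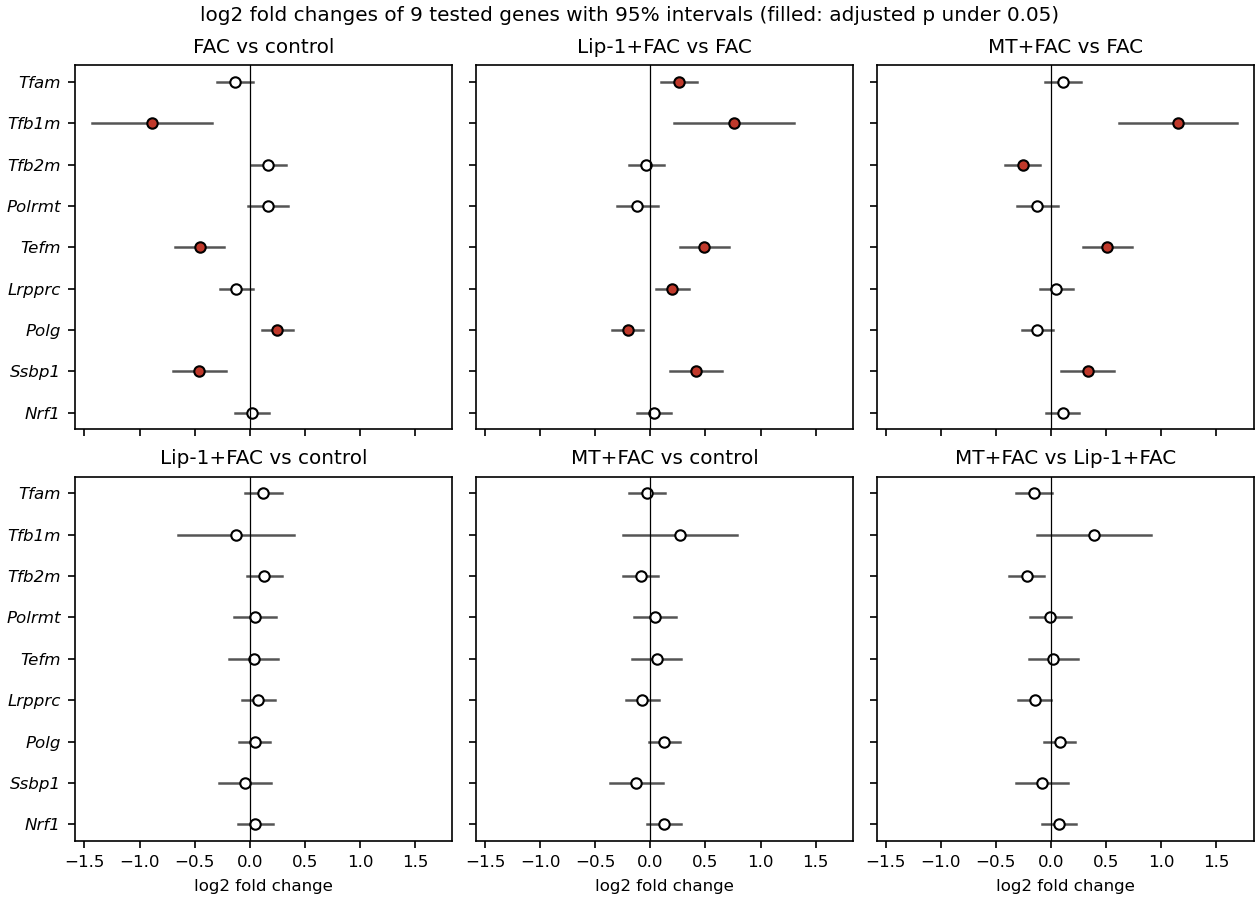
Log2 fold changes (horizontal axis) of the 9 tested genes in the 6 comparisons, with 95% intervals as lines. Filled points have an adjusted p under 0.05, and all of them are in the 3 comparisons that involve the FAC group, with 4, 6 and 4 genes.

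Among the initiation factors, Tfam (ENSMUSG00000003923, chr10:71225464-71238280 on GRCm38, minus strand) gave 35.6, 30.3 and 33.3 CPM in the control libraries and 30.3, 31.1 and 28.7 in FAC. Lip-1+FAC held 37.0, 35.4 and 35.7 CPM, and MT+FAC held 32.2, 31.0 and 34.0. The FAC and control libraries overlapped, and those of Lip-1+FAC lay above all FAC libraries. Tfam did not pass against control (log2 fold change -0.14, SE 0.0785, adjusted p 0.192) and rose by 19.7% in Lip-1+FAC against FAC (log2 fold change 0.26, SE 0.0782, adjusted p 0.0135). In MT+FAC against FAC its log2 fold change was 0.11 (adjusted p 0.295). With GC and length offsets the call for Lip-1+FAC was lost (0.14, adjusted p 0.17).

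Tfb2m (ENSMUSG00000026492, chr1:179528055-179546267, minus strand) was the one gene of the 9 that was called lower in MT+FAC than in FAC. It gave 27.5, 29.0 and 29.9 CPM in control, 32.0, 32.9 and 32.2 in FAC, 31.1, 33.6 and 29.9 in Lip-1+FAC, and 26.2, 27.1 and 27.9 in MT+FAC. The MT+FAC libraries lay below all FAC libraries, and the FAC libraries lay above all control libraries. The fall in MT+FAC against FAC was -0.26 on the log2 scale (SE 0.0757, adjusted p 0.0113). Against control the FAC value was 0.17 (SE 0.0758, adjusted p 0.0918), and it passed with DESeq2 (0.19, adjusted p 0.0488) and with GC and length offsets (0.34, adjusted p 0.00128). A pseudogene on chromosome 12, Gm1818, is 99.3% identical over 1187 bases, 48.5% of the Tfb2m transcript, so that reads from this stretch may have been lost and the level is uncertain.

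Polrmt (ENSMUSG00000020329, chr10:79736123-79746581, minus strand) gave 60.6, 60.9 and 68.2 CPM in control, 66.6, 82.6 and 63.0 in FAC, 69.4, 60.6 and 66.2 in Lip-1+FAC, and 65.3, 65.7 and 64.3 in MT+FAC. The library at 82.6 is FAC replicate 2, the deepest, and the other 11 lay between 60.6 and 69.4. No comparison was called. FAC against control gave 0.17 (SE 0.0884, adjusted p 0.156), and leaving out FAC replicate 3 gave a call (0.24, adjusted p 0.0454). The exons of Polrmt have a GC content of 60.52%, the highest of the 10 genes.

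Tefm (ENSMUSG00000046909, chr11:80136678-80142175, minus strand), the elongation factor, gave 14.7, 12.8 and 13.7 CPM in control and 9.46, 10.1 and 10.6 in FAC, and the groups did not overlap. Lip-1+FAC held 13.2, 14.5 and 14.5 CPM and MT+FAC 14.1, 15.3 and 13.4, all above every FAC library and overlapping those of control. Tefm fell by 27% with FAC (log2 fold change -0.45, SE 0.106, adjusted p 0.00256). Against FAC it rose by 40.3% in Lip-1+FAC (0.49, SE 0.106, adjusted p 0.00128) and by 42.5% in MT+FAC (0.51, SE 0.105, adjusted p 0.000876). It kept its call in these 3 comparisons under every alternative run.

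Tfb1m (ENSMUSG00000036983, chr17:3519256-3557781, minus strand), the rRNA methyltransferase, showed the largest fold changes of the 9 genes and also the lowest counts, 26 to 96 reads per library. It gave 1.97, 2.44 and 2.21 CPM in control, 0.950, 1.28 and 1.33 in FAC, 1.89, 2.36 and 1.82 in Lip-1+FAC, and 1.91, 3.07 and 3.02 in MT+FAC. Each FAC library lay below all 9 others. Tfb1m fell by 45.8% with FAC (log2 fold change -0.88, SE 0.258, adjusted p 0.0118). It rose by 69.5% in Lip-1+FAC (0.76, SE 0.258, adjusted p 0.0257) and by 122% in MT+FAC (1.15, SE 0.253, adjusted p 0.00153), both against FAC. Without FAC replicate 1 the calls against control (-0.75, adjusted p 0.0505) and for Lip-1+FAC (0.64, adjusted p 0.0855) were lost, and the latter also without Lip-1+FAC replicate 2 (0.64, adjusted p 0.105) and with GC and length offsets (0.61, adjusted p 0.065).

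Of the pair that protects mitochondrial messenger RNA, Lrpprc (ENSMUSG00000024120, chr17:84705247-84790789, minus strand) gave 151.8, 140.6 and 130 CPM in control, 132, 129 and 127 in FAC, 145.9, 136 and 163 in Lip-1+FAC, and 134, 140.98 and 127 in MT+FAC. Only the Lip-1+FAC libraries lay wholly above those of FAC. The rise was 14.7% (log2 fold change 0.20, SE 0.0709, adjusted p 0.0338). The value against control in FAC was -0.12 (SE 0.071, adjusted p 0.196), which passed with GC and length offsets (-0.19, adjusted p 0.0166). The call for Lip-1+FAC was lost with these offsets (0.12, adjusted p 0.127), without FAC replicate 2 (0.20, adjusted p 0.0713) or 3 (0.19, adjusted p 0.0807), and without Lip-1+FAC replicate 1 (0.22, adjusted p 0.0518) or 3 (0.13, adjusted p 0.182).

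Its partner Slirp (ENSMUSG00000021040, chr12:87443896-87452206, plus strand) could not be measured in the unstranded column, which held 0 to 3 reads per library. In the annotation used here, GENCODE M21, 97.8% of its exonic bases lie under exons of Snw1 and Alkbh1 on the opposite strand, and reads that fall on 2 genes are assigned to none. The 2 stranded columns added together listed 1327 to 3103 reads for Slirp. Because the libraries do not mark strand, reads from Slirp and from its antisense neighbours cannot be told apart there. Those sums gave a log2 fold change of -0.13 for FAC against control (adjusted p 0.241), -0.23 for Lip-1+FAC (adjusted p 0.0477) and -0.32 for MT+FAC (adjusted p 0.0154), and no level of Slirp itself is given.

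In replication, the catalytic subunit gene Polg (ENSMUSG00000039176, chr7:79446231-79466362, minus strand) was the one gene of the 9 called higher with FAC. It gave 91.3, 95.5 and 87.0 CPM in control, 99.7, 119 and 107 in FAC, 93.3, 91.2 and 98.1 in Lip-1+FAC, and 99.1, 100.7 and 99.1 in MT+FAC. The FAC libraries lay above all control and all Lip-1+FAC libraries and overlapped those of MT+FAC, and the highest was FAC replicate 2. Polg rose by 19% with FAC (log2 fold change 0.25, SE 0.0666, adjusted p 0.00647) and fell by 13.3% in Lip-1+FAC against FAC (-0.21, SE 0.0665, adjusted p 0.0203). MT+FAC against FAC gave -0.12 (SE 0.0664, adjusted p 0.145). The rise was lost without FAC replicate 2 (0.18, adjusted p 0.0531) and with GC and length offsets (0.11, adjusted p 0.158), and the fall was lost without FAC replicate 2 (-0.13, adjusted p 0.151) and without Lip-1+FAC replicate 1 (-0.19, adjusted p 0.0634) or 2 (-0.18, adjusted p 0.0871). Exons of Fanci on the opposite strand cover 8.6% of the Polg exonic bases.

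Ssbp1 (ENSMUSG00000029911, chr6:40471352-40484700, plus strand), the single-strand binding protein, gave 42.7, 35.6 and 45.7 CPM in control and 28.5, 26.5 and 35.65 in FAC, so that the highest FAC library just overlapped the lowest control library. Lip-1+FAC held 42.4, 41.9 and 35.7 CPM, above the FAC libraries by a narrow margin, and MT+FAC held 39.4, 35.4 and 38.7. Ssbp1 fell by 27.2% with FAC (log2 fold change -0.46, SE 0.113, adjusted p 0.00411) and rose against FAC by 33% in Lip-1+FAC (0.41, SE 0.113, adjusted p 0.00775) and by 25.8% in MT+FAC (0.33, SE 0.113, adjusted p 0.026). With GC and length offsets both rises were lost (0.28, adjusted p 0.0734, and 0.27, adjusted p 0.0891), and the rise in MT+FAC was also lost without FAC replicate 1 (0.29, adjusted p 0.0887), FAC replicate 2 (0.24, adjusted p 0.127), MT+FAC replicate 1 (0.30, adjusted p 0.0882) or MT+FAC replicate 3 (0.32, adjusted p 0.0722). A pseudogene on chromosome 11, Gm12115, is 97.8% identical over 447 bases.

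Nrf1 (ENSMUSG00000058440, chr6:30047988-30153458, plus strand), nuclear respiratory factor 1, gave 44.7, 43.1 and 50.2 CPM in control, 45.0, 44.5 and 50.4 in FAC, 46.6, 48.3 and 48.1 in Lip-1+FAC, and 49.8, 49.5 and 51.0 in MT+FAC. It was called in no comparison. Its log2 fold change with FAC was 0.02, with a 95% interval from -0.14 to 0.17.

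**Figure D3:**
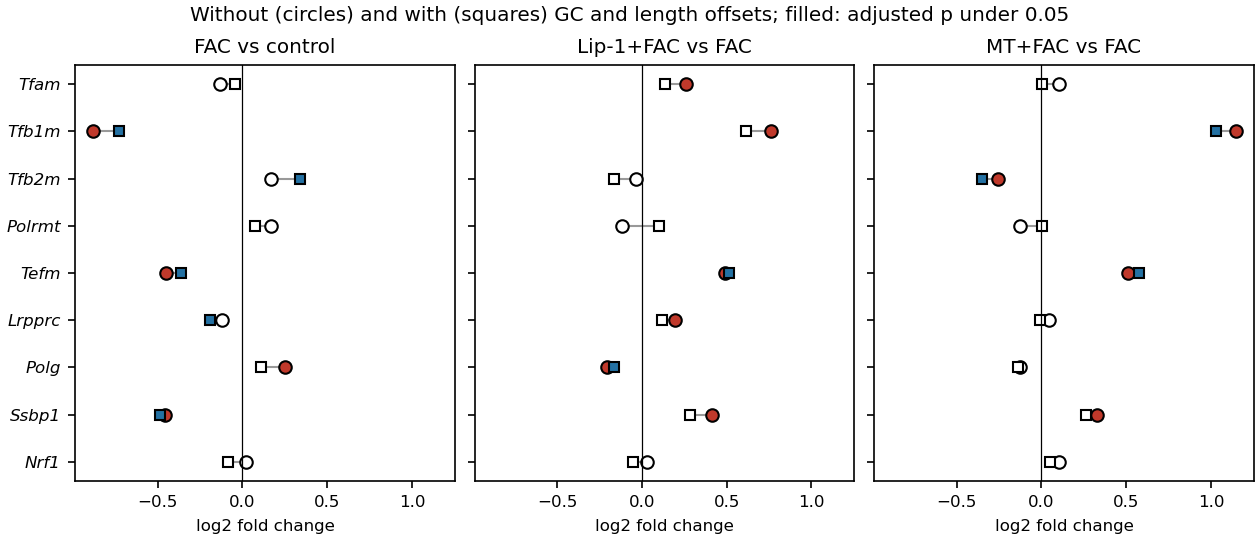
Log2 fold changes (horizontal axis) of the 9 genes without (circles) and with (squares) offsets for GC content and annotated exonic length, in the 3 comparisons that involve FAC. Filled symbols have an adjusted p under 0.05, and with the offsets the number of called genes goes from 4 to 5, from 6 to 2 and from 4 to 3.

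Across the 12 libraries, which share the 4 groups, the log2 CPM of Tfb1m and Tefm had a Pearson r of 0.83 and that of Tefm and Ssbp1 an r of 0.76. The lowest values were -0.84 for Polg and Ssbp1 and -0.62 for Tefm and Polg. These describe the libraries and carry no test. Among 8999 protein-coding genes, the patterns most like Tfam were those of Gdap2 (r 0.916), Tmem59 (0.893) and Lamp2 (0.892). Those most like Polrmt were Csnk1g2 (0.875), Apoe (0.825) and Apba3 (0.81).

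Among 20 further genes of replication, nucleoid maintenance and nucleotide supply, 19 were tested, of which 42.1% were called with FAC against 36.6% of all genes. With FAC 3 rose and 5 fell against control (3 and 3 without control replicate 3, 6 and 5 with GC and length offsets). Dna2, a nuclease and helicase that trims replication intermediates, gave 10.3, 12.5 and 9.23 CPM in control and 6.25, 5.92 and 5.89 in FAC. It fell by 0.83 on the log2 scale (SE 0.13, adjusted p 8e-05). Dguok, the mitochondrial deoxyguanosine kinase, fell by 0.40 (adjusted p 0.00676). Lonp1, the matrix protease that degrades TFAM not bound to DNA, rose by 0.40 (adjusted p 3.6e-05), and Slc25a33, a pyrimidine nucleotide carrier, by 0.71 (adjusted p 1.56e-05). Against FAC, Lip-1+FAC raised 4 and lowered 4, and MT+FAC raised 6 and lowered 4 (5 and 2 without FAC replicate 2), which is 42.1% and 52.6% called against 39.9% and 40.9% of all genes. Dna2 rose by 1.07 and 0.90, Dguok by 0.52 and 0.53, and Lonp1 fell by 0.57 in both (adjusted p at most 0.000692). None was called between the scavenger groups by edgeR (3 at an unadjusted p under 0.05). Against control, 2 rose and 4 fell in Lip-1+FAC (1 and 2 without control replicate 3 or Lip-1+FAC replicate 3, 1 and 3 without control replicate 1 or Lip-1+FAC replicate 1 or 2), and 2 rose and 3 fell in MT+FAC (1 rose without control replicate 2, and 0 without any 1 of the other 5 libraries). These were 4 and 3, and 3 and 3, with GC and length offsets. The genes called were 31.6% and 26.3% of the list, against 30.2% and 19.8% of all genes.

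Of the 5 termination factor genes, with FAC Mterf3 rose by 0.28 (adjusted p 0.0141) and Mterf4, which targets the rRNA methyltransferase NSUN4 to the mitochondrial ribosome, fell by 0.56 (adjusted p 0.000695). Mterf4 gave 21.8, 19.7 and 19.8 CPM in control and 14.4, 12.5 and 14.9 in FAC. It rose against FAC by 0.41 in Lip-1+FAC (adjusted p 0.00681) and by 0.49 in MT+FAC (adjusted p 0.00174). The rise of Mterf3 was lost without control replicate 2 (0.24, adjusted p 0.0624) or FAC replicate 1 (0.21, adjusted p 0.0868), and that of Mterf4 in Lip-1+FAC without Lip-1+FAC replicate 1 (0.29, adjusted p 0.0534).

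Among the 27 tested genes of mitochondrial RNA processing, modification and turnover, 3 rose and 7 fell with FAC, 8 rose and 5 fell in Lip-1+FAC against FAC, and 7 rose and 3 fell in MT+FAC against FAC. These are 37%, 48.1% and 37% of the list, against 36.6%, 39.9% and 40.9% of all genes. With FAC the number that rose was 1 without FAC replicate 1 or 2. The GC and length offsets gave 6 that rose and 7 that fell with FAC, while 7 rose and 4 fell in Lip-1+FAC, and 8 rose and 6 fell in MT+FAC against FAC. In Lip-1+FAC against FAC the counts were 5 and 4 without FAC replicate 1, 5 and 3 without FAC replicate 2, and 7 and 3 or 6 and 3 without Lip-1+FAC replicate 1 or 2. Trmt10c, a subunit of mitochondrial RNase P, gave 57.4, 54.9 and 53.9 CPM in control, 96.0, 87.0 and 94.7 in FAC, 70.3, 74.0 and 67.5 in Lip-1+FAC and 51.9, 56.7 and 59.5 in MT+FAC. It rose by 0.74 with FAC (adjusted p 2.47e-07) and fell against FAC by 0.39 in Lip-1+FAC (adjusted p 0.000184) and by 0.72 in MT+FAC (adjusted p 3.66e-07). Nsun4 rose against FAC by 0.58 and 0.53, and Angel2, a deadenylase family member, by 0.58 and 0.46 (adjusted p at most 0.000253). Ptcd2, a pentatricopeptide repeat protein gene, fell by 0.51 with FAC (adjusted p 0.000322).

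Among 13 tested nuclear regulators of mitochondrial biogenesis, 7 rose and 2 fell with FAC, 69.2% against 36.6% of all genes. Of the 7 rises, those of Gabpa and Gabpb2 were not called without control replicate 3 (adjusted p 0.0978 and 0.1) or FAC replicate 2 (adjusted p 0.093 and 0.0767). Those of Gabpa and Yy1 were not called without FAC replicate 1 (adjusted p 0.135 and 0.059). In Lip-1+FAC and MT+FAC against FAC 38.5% were called, against 39.9% and 40.9% of all genes, and against control 61.5% and 38.5%, against 30.2% and 19.8%. Without MT+FAC replicate 2 the calls of Ppargc1a and Yy1 in MT+FAC against FAC were lost (adjusted p 0.0514 and 0.0527). With FAC, Myc rose by 1.16 (adjusted p 1.2e-08), Sirt1, a deacetylase gene, by 0.84 (adjusted p 0.000135) and Pprc1, a coactivator of the PGC-1 family, by 0.65 (adjusted p 5.48e-06). Against FAC, Myc fell by 0.57 with liproxstatin-1 and 0.71 with Mito-TEMPO, and Sirt1 by 0.52 and 0.70 (adjusted p at most 0.00555). With FAC, Ppargc1a, which encodes PGC-1 alpha, fell by 0.55 (adjusted p 0.00326). Ppargc1a gave 12.4, 11.4 and 10.97 CPM in control, 9.28, 7.47 and 7.07 in FAC, 10.9, 11.2 and 13.7 in Lip-1+FAC and 11.1, 9.81 and 9.84 in MT+FAC. It rose against FAC by 0.59 in Lip-1+FAC (adjusted p 0.00173) and by 0.37 in MT+FAC (adjusted p 0.0309). The latter call was lost with GC and length offsets (0.29, adjusted p 0.0741), without FAC replicate 2 (0.33, adjusted p 0.105) or 3 (0.31, adjusted p 0.105), and without MT+FAC replicate 1 (0.30, adjusted p 0.13) or 2 (0.39, adjusted p 0.0514). Gabpa, an ETS factor, stood at 0.18 with FAC (adjusted p 0.044, not called when any 1 of control replicates 1 to 3 or FAC replicates 1 and 2 was left out, at 0.16 to 0.19 with adjusted p 0.0589 to 0.135, nor with upper quartile scaling, adjusted p 0.07, no filter, 0.109, or only the compared libraries, 0.0657) and was higher than control by 0.43 in Lip-1+FAC (adjusted p 7.91e-05) and 0.32 in MT+FAC (adjusted p 0.00257). Ppargc1b was called in no comparison, with log2 fold changes from -0.28 to 0.11. Esrra, an orphan nuclear receptor gene, had log2 fold changes of -0.42 in Lip-1+FAC (adjusted p 0.011) and -0.33 in MT+FAC (adjusted p 0.0514) against control. The first was not called without control replicate 3 (-0.34, adjusted p 0.0536) or Lip-1+FAC replicate 3 (-0.31, adjusted p 0.0667), and the second was called with DESeq2, upper quartile scaling, no filter, a mean CPM of at least 5, GC and length offsets, and without MT+FAC replicate 1 (-0.41 to -0.31, adjusted p 0.0359 to 0.0493).

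The transcripts that this machinery produces, those of mitochondrial DNA itself, made up 0.9537% to 1.21% of gene counts in control, 1.149% to 1.234% in FAC, 0.7175% to 0.7977% in Lip-1+FAC and 0.6387% to 0.7109% in MT+FAC. These shares count only reads assigned to a gene, and reads of genes with nuclear copies (below) may be missing. In control mt-Co2 averaged 2.27 CPM and mt-Co1 5604.8. Lines that name no gene, left out here, held 20.25% to 21.98% of reads in control and 22.17% to 24.19% in FAC. They held 18.83% to 19.61% in Lip-1+FAC and 19.27% to 19.48% in MT+FAC. Of 15 listed genes 12 were tested, of which 8.33% were called with FAC, against 36.6% of all genes. With FAC 1 was called higher, mt-Co1 (0.21, adjusted p 0.0398), a call that was lost without control replicate 2 or 3 or any 1 FAC library (0.13 to 0.23, adjusted p 0.0659 to 0.216) and with upper quartile scaling (0.20, adjusted p 0.0561). Offsets for GC content and length gave 3 called higher, mt-Nd4 (0.23, adjusted p 0.002) and mt-Cytb (0.19, adjusted p 0.0145) besides mt-Co1. Against control, 8 of 12 fell in Lip-1+FAC (median -0.55) and 9 of 12 in MT+FAC (median -0.83), where 30.2% and 19.8% of all genes were called in either direction. The count for Lip-1+FAC was 5 without control replicate 1 or 3 or Lip-1+FAC replicate 1 or 3. In MT+FAC against control, mt-Nd6, mt-Co2 and mt-Co3 lost their calls without MT+FAC replicate 1 (adjusted p 0.111, 0.0665 and 0.0503). Those of mt-Nd6 and mt-Co2 were lost without control replicate 3 (adjusted p 0.13 and 0.0932). With GC and length offsets mt-Nd5 and mt-Nd6 were not called (adjusted p 0.0885 and 0.226). A call was gained there for mt-Atp6 with DESeq2, no filter, a fit of the compared libraries alone, or control replicate 2 left out (adjusted p 0.00143 to 0.0369). Against FAC, 11 of 12 fell in Lip-1+FAC (7 when the third replicate of either group was left out) and 10 of 12 in MT+FAC. Of all genes, 39.9% and 40.9% were called in these 2 comparisons, 19.2% and 19.7% lower. In the 2 comparisons with control none of the 9 nuclear genes was called.

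The mitochondrial gene mt-Nd1, which encodes a subunit of complex I, gave 1273, 988 and 1292 CPM in control and 1212, 1126 and 1342 in FAC. It gave 765, 815 and 648 CPM in Lip-1+FAC and 383, 386 and 458 in MT+FAC. The MT+FAC libraries lay below those of Lip-1+FAC, which lay below all others. In MT+FAC against control mt-Nd1 fell by 65.5% (log2 fold change -1.53, SE 0.12, adjusted p 6.73e-06), whereas the ribosomal RNA mt-Rnr2 gave -0.17 (SE 0.172, adjusted p 0.527). The libraries were primed with oligo-dT, and mt-Co2, mt-Co3, mt-Atp6, mt-Nd3 and mt-Nd4l have nearly identical nuclear copies on chromosome 1, so that their counts are uncertain and are not plotted. Further copies were found for 4 genes that are plotted, and their counts may be affected too. They lie on chromosome 1 for mt-Nd4 (63.6% of its length, 100% identical) and part of mt-Co1 (31.3%, 99.8%), on chromosome 2 for all of mt-Co1 (97.6% identical) and part of mt-Nd2 (49.1%, 96.7%), and on chromosome 13 for mt-Nd5 (52.3%, 95.2%). For mt-Nd1, mt-Nd6, mt-Cytb, mt-Rnr1 and mt-Rnr2 no copy of at least 95% identity over 100 bases was found. Of these 5, chosen after the values were seen, mt-Nd1, mt-Cytb and mt-Nd6 fell in both scavenger groups against control. The call of mt-Nd6 against control was lost with GC and length offsets, with no filter, with only the compared libraries and with the replicate number as a block. It was also lost without control replicate 1 or 3, Lip-1+FAC replicate 1 or 3, or MT+FAC replicate 1 or 2.

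**Figure D4:**
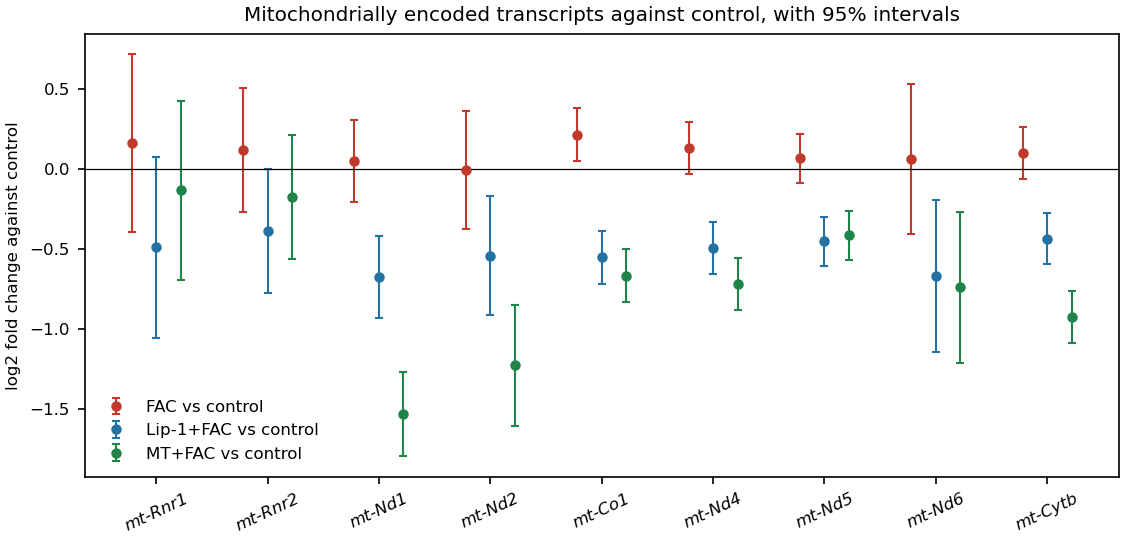
Log2 fold changes against control (vertical axis) of 9 transcripts of mitochondrial DNA (4 of them, mt-Co1, mt-Nd2, mt-Nd4 and mt-Nd5, with nuclear copies) in FAC, Lip-1+FAC and MT+FAC, with 95% intervals as bars. In FAC the values lie between -0.01 and 0.21, and in MT+FAC they run from -0.13 for mt-Rnr1 to -1.53 for mt-Nd1.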

How the data were processed

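Per the labels' protocols, total RNA from 12 samples of mouse hepatocytes was converted to cDNA with an oligo-dT SMART-Seq v4 kit, tagged with Nextera XT and sequenced as read pairs. No molecular identifiers are mentioned, so intervals take amplified reads as they were counted. The authors deposited unnormalized read counts for each gene; STAR and GRCm38 are named in the submitters' processing notes, and the aligner version and annotation are not given in the sources used here. The unstranded count column was used, since 49.88% to 50.0% of stranded reads fell on either strand. Lines that name no gene held 18.83% to 24.19% of reads and were left out. Of 55487 identifiers 55227 matched GENCODE M21, and the others held 0.0021% of counts.

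Genes kept by filterByExpr (13535, holding 99.94% of counts) were fitted with edgeR 4.0.16 (TMM, factors 0.989 to 1.01, robust quasi-likelihood, 4 group means, 12 libraries, two-sided) in R 4.3.3, and p-values were adjusted over all genes tested. Standard errors were derived from the F statistic. Replicates differed by more than sampling noise (chi-square per degree of freedom 8.23 to 22.2). Alternatives were other scalings, filters, DESeq2 1.42.0, only the compared libraries, a replicate block, the stranded columns, GC and length offsets (natural splines, 5 degrees of freedom), omission of mitochondrially encoded genes, and leaving out each library. Copies were sought with blastn 2.17.0+ (at least 95% identity over 100 bases). The genes and lists were chosen with earlier results of these data known. Named were all listed genes, those of mitochondrial DNA, 5 regulators regardless of change, and the 3 genes most correlated with Tfam and with Polrmt (mean CPM of at least 5). Further genes came from the up to 3 called per list, comparison and direction with the largest change, not all of which are printed.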

Additional observations from a re-analysis of the deposited data

Results flagged for a closer look

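The effects of liproxstatin-1 and Mito-TEMPO, both given with FAC, differed by edgeR's test of the difference itself in 3 of the 162 tested entries of the lists described. Mrpl12 is entered both in the RNA processing list and in the ribosome list. The share is 1.85%, against 1.34% of all genes. The mitochondrial gene mt-Nd1 was lower in MT+FAC than in Lip-1+FAC by a log2 fold change of -0.86 (SE 0.119, adjusted p 0.00329). The cytochrome b gene mt-Cytb was lower by -0.49 (SE 0.0768, adjusted p 0.00221). Trmt10c, a subunit gene of mitochondrial RNase P, was lower by -0.34 (SE 0.0686, adjusted p 0.0191), a call that was lost without Lip-1+FAC replicate 1 (-0.34, adjusted p 0.0746) or 2 (-0.30, adjusted p 0.104) and without MT+FAC replicate 1 (-0.28, adjusted p 0.0973) or 2 (-0.36, adjusted p 0.0602). Other settings called further list genes in this comparison. They were mt-Nd2 with DESeq2 (-0.69, adjusted p 0.000145), with GC and length offsets (-0.54, adjusted p 0.0106) and without Lip-1+FAC replicate 3 (-0.83, adjusted p 0.0266), mt-Nd4 with no filter (-0.22, adjusted p 0.02) and Lig3 with DESeq2 (0.22, adjusted p 0.0313).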

How the results depend on the processing

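Over the 10 listed genes and all alternatives, no called value changed direction; the calls lost or gained stand beside each gene above. The number of listed genes called moved by over 1.5 times with GC and length offsets, to 2 in Lip-1+FAC against FAC (Polg and Tefm) and to 1 in MT+FAC against control. In MT+FAC against Lip-1+FAC the number of all genes called, 182, became 477 with no filter, 312 with only the compared libraries and 465 with DESeq2, and ran from 74 to 156 when each of the 6 compared libraries was left out in turn. With GC and length offsets Mrpl12 and Mrpl34 changed direction in Lip-1+FAC against FAC (0.15 and 0.003), and Mrpl34 in MT+FAC against FAC (0.034). The cause was not tested.

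Same-numbered replicates are not said to share an animal or day, and their deviations correlated at -0.249 to 0.164, with 4 of 12 libraries closest to their own number. A fit with the replicate number as a block called 4863 genes in FAC against control, 5278 and 5488 in Lip-1+FAC and MT+FAC against FAC, 193 between the scavenger groups, and 3961 and 2553 against control. It called 4, 6, 4, 0, 0 and 0 of the listed genes in the same order. Of the 12 tested transcripts of mitochondrial DNA it called 0 in FAC against control (mt-Co1, adjusted p 0.06) and 5 in Lip-1+FAC against control, where mt-Nd2, mt-Nd6 and mt-Co3 lost their calls. In MT+FAC against control mt-Nd6 lost its call (adjusted p 0.0527). Low counts limited Tfb1m the most, and Slirp could not be counted.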

Other observations

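Proteins of the mitochondrial ribosome are nuclear-encoded users of the ribosomal RNA that this machinery makes. Of 77 tested genes named Mrpl or Mrps, 27 were called lower and 0 higher with FAC against control, with a median log2 fold change of -0.17, and 0 passed as higher also in Lip-1+FAC (23 lower, median -0.20) and in MT+FAC (19 lower, median -0.19) against control. Without control replicate 3 these 3 comparisons gave 21, 13 and 10 lower and 2, 1 and 0 higher. The count for Lip-1+FAC was 14 lower without Lip-1+FAC replicate 3, and that for MT+FAC was 10 or 11 without MT+FAC replicate 1 or 2. The genes called were 35.1% of the list with FAC, against 36.6% of all genes, and 27.3% and 28.6% in Lip-1+FAC and MT+FAC against FAC, where 39.9% and 40.9% of all genes were called. In Lip-1+FAC and MT+FAC against control they were 29.9% and 24.7%, against 30.2% and 19.8% of all genes. With GC and length offsets these comparisons gave 13 and 10 lower and 5 and 1 higher. Mrps31 fell by 0.70 with FAC (adjusted p 1.62e-05) and Mrpl49 by 0.49 (adjusted p 0.000523). Against FAC, Mrps31 rose by 0.54 in Lip-1+FAC (adjusted p 0.000201) and by 0.50 in MT+FAC (adjusted p 0.000375). Over the whole list 9 rose and 12 fell in Lip-1+FAC against FAC, and 8 rose and 14 fell in MT+FAC against FAC. With GC and length offsets these were 17 and 7, and 16 and 11. Without 1 library the first pair was 5 and 11 (FAC replicate 1), 14 and 6 (FAC replicate 3) or 7 and 3 (Lip-1+FAC replicate 3), and the second 3 and 12 (FAC replicate 1), 3 and 14 (FAC replicate 2), 4 and 12 (MT+FAC replicate 2) or 5 and 10 (MT+FAC replicate 3). Between the scavenger groups edgeR called 0 of the 77, with 3 at an unadjusted p under 0.05.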
